A study of Homo sapiens with 6 samples.

Results

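Intraflagellar transport moves cargo along the microtubules of a cilium, and it is carried by trains built from the IFT-A and IFT-B complexes. IFT-B trains are driven toward the ciliary tip by kinesin-2, and dynein-2 returns them with IFT-A and the BBSome. A primary cilium is a single sensory projection on which Hedgehog signalling depends, whereas multiciliated airway cells carry many motile cilia. TTC26, also named IFT56, is a tetratricopeptide repeat subunit of the IFT-B core that is known for its part in loading motility proteins onto the trains.

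The genes described here were 10 IFT-B subunit genes of the 19934 gene symbols in the count files: TTC26, IFT20, IFT27, IFT46, IFT52, IFT57, IFT74, IFT80, IFT81 and IFT88. TTC26 was picked on its lower count upon ZBTB11 knockdown in these same libraries, and the other 9 were listed as genes of the same complex. The counts of TTC26 in the si-ZBTB11 libraries are therefore given as a description with no test. The 7 subunits outside that list, IFT22, HSPB11, TTC30A, TTC30B, CLUAP1, TRAF3IP1 and IFT172, were read beside them, so that 17 subunits are covered.

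RNA-seq was measured in NCI-H1299 cells, a human lung cancer line that the study describes as p53-null, in 6 libraries. The groups were cells of this line with control siRNA (si-Ctr), with ZBTB11 knockdown by si-ZBTB11 or with SET knockdown by si-SET. Each group had 2 replicates. ZBTB11 is a zinc finger protein of the BTB family and SET a histone chaperone, and the study asked which genes depend on each. The cells of every group were transfected with Lipofectamine over several days, and the labels do not say which of the study's ZBTB11 oligos a library received.

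Libraries held 16653115 to 17694522 counts in genes, so 3 counts corresponded to 0.170 to 0.1801 CPM, the count scaled to a common library size, a limit of counting error only. ZBTB11 counts were 925 and 1075 in si-Ctr and 548 and 544 in si-ZBTB11, and SET counts were 11656 and 11007 in si-Ctr and 1032 and 1031 in si-SET. ZBTB11 RNA was thus reduced to 0.55 of control, with a 95% interval of 0.49 to 0.61, and it was also lower in the si-SET libraries, at 846 and 708 counts or 0.76 of control. The H1299 markers KRT8, KRT18 and VIM summed to 2244 to 2418 CPM over all 6 libraries. By edgeR, KRT8 fell by 0.33 (adjusted p = 6.28e-12) and KRT18 by 0.23 (adjusted p = 4.53e-07) on the log2 scale upon ZBTB11 knockdown while VIM rose by 0.12 (adjusted p = 0.000993), and upon SET knockdown KRT8 fell by 0.31 (adjusted p = 1.09e-10) and KRT18 by 0.15 (adjusted p = 0.00111). The part of these shifts in the subunit values was not tested. The multiciliated cell regulator FOXJ1 and the axonemal genes DNAI2, DNAH9, RSPH1 and TEKT1 had at most 3 counts in any library. The other 10 of 15 multiciliated markers were detected, and the list summed to 53.1 to 54.3 CPM in si-Ctr, 45.9 to 51.8 in si-ZBTB11 and 44.7 to 47.1 in si-SET; its part in the results was not tested.

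TTC26 lies on the plus strand of chromosome 7 at 139133744 to 139191986 of hg38, and its MANE Select transcript has 18 exons and 4299 bases (GENCODE 44). None of its exonic bases is shared with another annotated gene, and 4.17% of its 31-base words occur in transcripts of other genes. The stretch at its 5′ end is printed here because the study placed its ZBTB11 ChIP-qPCR primers there. The study reported ZBTB11 recruitment to the TTC26 promoter by ChIP-seq and by ChIP-qPCR. Its ChIP-seq had no biological replicates and assigned specific ZBTB11 occupancy to more genes than there were gene symbols counted here. Such an assignment alone therefore does not set TTC26 apart. The printed stretch is the plus strand of chr7:139133528-139133752 of GRCh38.p14 from RefSeq, with the amplicon in capitals. The amplicon ends 9 bases past the start of the gene in GENCODE.
TTC26 5′ region: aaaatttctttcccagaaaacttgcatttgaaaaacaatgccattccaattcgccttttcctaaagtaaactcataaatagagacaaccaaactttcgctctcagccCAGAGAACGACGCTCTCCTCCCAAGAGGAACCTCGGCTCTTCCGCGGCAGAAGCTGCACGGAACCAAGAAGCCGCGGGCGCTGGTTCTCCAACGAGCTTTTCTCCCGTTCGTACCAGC
This region of 225 bases holds 14 CpG and has a GC content of 49.3%. The amplicon of 118 bases holds 0 copies of CCGGAAG or CAGGAAG on either strand, the forms that the study names as a ZBTB11 motif. Only exact copies were searched, and their absence is no measurement of binding. No ChIP data were analysed here.

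Across RefSeq promoters of 300 bases, 16 of the 17 subunits could be matched. One of these 7-base forms was found in 21.8% of 35116 promoters and in 5 of the 16 subunits, namely IFT20, IFT46, IFT81, IFT88 and TTC30B. The X-box, the element bound by RFX factors at many ciliary genes, was found in 1.31% of promoters and in IFT57, TTC30A and TTC30B. Both strands were searched, and neither motif was found in the TTC26 promoter. The X-box matches are shown 5′ to 3′ on the strand of the gene, with the matched letters in capitals.
IFT57 X-box at chr3:108222415-108222427: gtccggtgGTCGCCTGGTAACcggtcgtg
TTC30A X-box at chr2:177618727-177618740: gttgccctGTTGCCGTGGTAACcgcacgca
TTC30B X-box at chr2:177552789-177552802: gttgctctGTTGCCATAGTAACcgcaccca
A match describes letters and is no measurement of binding.

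The sense strands of the ZBTB11 and SET siRNAs that the study lists are shown because a guide can also pair with other transcripts through its seed. The 7 bases that pair with guide positions 2 to 8 are in capitals.
si-ZBTB11 #1: ggagctgtttcCAGTCATg
si-ZBTB11 #2: gtgacatctctTGTACACt
si-SET: gugacagaauuUGAAGAUa
The seed match of si-ZBTB11 #1 occurred once or more in annotated 3′ UTRs of 15.96% of 19591 genes, TTC26 and CLUAP1 among the 17 subunits. That of si-ZBTB11 #2 occurred in 12.0% of genes and in IFT74, TTC30B and IFT172, but not in TTC26. That of si-SET occurred in 25.0% of genes and in 7 of the 17 subunits. These were TTC26, IFT20, IFT57, IFT74, IFT88, TTC30A and CLUAP1. The seed match of the control siRNA, present in the si-Ctr libraries, occurred in 4.10% of genes and in 0 of the 17 subunits. The part of seed pairing in any level below was not tested.

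TTC26 was lower upon ZBTB11 knockdown in both libraries. It had 268 and 319 counts in si-Ctr, 97 and 83 in si-ZBTB11 and 260 and 285 in si-SET. In CPM after TMM scaling these were 15.3 and 19.1, 5.62 and 4.95, and 14.7 and 16.7. Both si-ZBTB11 libraries lay far below the other 4, and the si-SET libraries overlapped those of si-Ctr. The mean level in si-ZBTB11 was 30.7% of that in si-Ctr, at 5.28 ± 0.48 against 17.2 ± 2.65 CPM (SD, n = 2). The fitted log2 fold change was -1.70 with a standard error (SE) of 0.15, which is a fold of 0.31. TTC26 had the 22nd lowest value of the 13534 genes tested, and the 5th lowest of the 11724 with a mean of at least 50 counts. TTC26 was picked on this comparison, so its rank and SE here are a description and no test. Against si-SET, in a comparison that uses the same si-ZBTB11 libraries, the fitted log2 fold change was -1.57 (SE 0.15). In these bulk libraries, fewer cells with a transcript and less RNA per cell cannot be told apart.

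SET knockdown left no detectable difference in TTC26 at this depth. The log2 fold change against si-Ctr was -0.13 (SE 0.12), with a 95% interval from -0.37 to 0.11 and an adjusted p of 0.466 in the edgeR quasi-likelihood test, adjusted after Benjamini-Hochberg, which also gave every call and adjusted p below where no other tool is named. That comparison uses the same si-Ctr libraries as the one that picked TTC26. Without the second si-Ctr library the value was 0.04. ZC3HAV1, the antiviral zinc finger gene that starts 1622 bases away on the opposite strand, had log2 fold changes of -0.14 (SE 0.06, adjusted p = 0.111) upon ZBTB11 knockdown and -0.12 (SE 0.06, adjusted p = 0.182) upon SET knockdown.

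**Figure D1:**
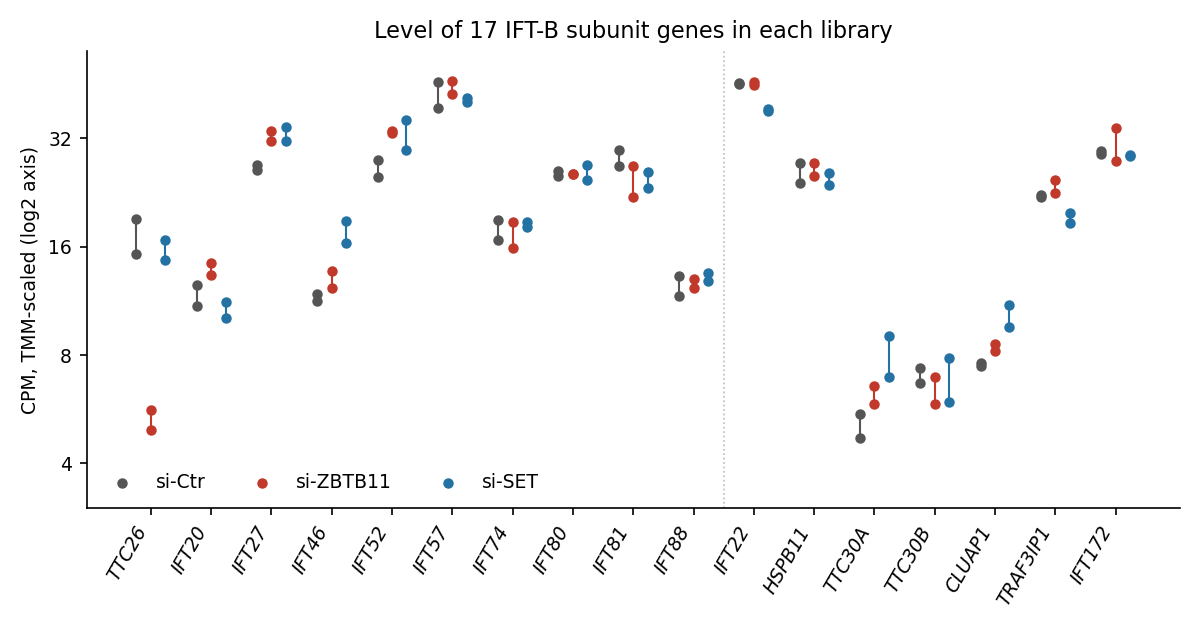
CPM after TMM scaling (log2 axis) of 17 IFT-B subunit genes, with a point for each of the 6 libraries and a line joining the 2 libraries of a group; the dotted line separates the 10 listed genes from the 7 others. The si-ZBTB11 points of TTC26, at 5.62 and 4.95 CPM, lie below its other 4 points.

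The other subunits, core and peripheral together, were mostly not called upon ZBTB11 knockdown. Of these 16, 0 were called lower at an adjusted p under 0.05, against 10.5% of all genes tested. At an unadjusted p under 0.05 there was 1, IFT81. By DESeq2 there were 0, while it called 1296 genes in all against 2771 by edgeR. Called higher were 2, IFT27 and IFT52, against 9.94% of all genes. The median log2 fold change of the 16 was 0.07, beside 0.00 over all genes.

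IFT52, the scaffold that joins the core of the complex to its other arm, had 27.8 and 25.0 CPM in si-Ctr, 33.1 and 33.4 in si-ZBTB11 and 29.7 and 36.0 in si-SET. Both knockdown groups lay above si-Ctr with no overlap, and they overlapped each other. It rose by a log2 fold change of 0.34 (SE 0.09, adjusted p = 0.00335) upon ZBTB11 knockdown and 0.31 (SE 0.09, adjusted p = 0.00725) upon SET knockdown. DESeq2 called neither, with an adjusted p of 0.0773 and 0.128. Without the second si-Ctr library the values were 0.26 (adjusted p = 0.107) and 0.24 (adjusted p = 0.136), and without the second si-SET library the latter was 0.17 (adjusted p = 0.329).

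IFT27, a Rab-like GTPase that works with HSPB11 in the exit of BBSome cargo from cilia, had 26.9 and 26.1 CPM in si-Ctr, 31.4 and 33.6 in si-ZBTB11 and 31.5 and 34.3 in si-SET. The si-Ctr libraries were again the lowest and did not overlap either knockdown. It rose by 0.29 (SE 0.09, adjusted p = 0.0118) upon ZBTB11 knockdown and by 0.31 (SE 0.09, adjusted p = 0.00623) upon SET knockdown on the log2 scale. DESeq2 called neither, with an adjusted p of 0.142 and 0.0953. The call upon ZBTB11 knockdown was also lost without the second si-Ctr (adjusted p = 0.0947) or the second si-ZBTB11 library (adjusted p = 0.144), and that upon SET knockdown without the second si-Ctr (adjusted p = 0.0601) or the second si-SET library (adjusted p = 0.113). A long noncoding RNA on the opposite strand covers 11.9% of the IFT27 exon length, and the strand setting of the counting is not given in the sources used here.

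IFT46, a core subunit known for carrying outer dynein arms, moved with SET knockdown. It had 11.8 and 11.3 CPM in si-Ctr, 13.7 and 12.3 in si-ZBTB11 and 18.8 and 16.3 in si-SET. The 3 groups did not overlap, and si-SET was the highest. IFT46 rose by 0.60 (SE 0.13, adjusted p = 6.64e-05) upon SET knockdown, and this call remained under each of the 11 alternatives run, with adjusted p from 2.05e-05 to 0.0121. Upon ZBTB11 knockdown its log2 fold change was 0.17 (SE 0.14, adjusted p = 0.429). Directly between the knockdowns it was lower in si-ZBTB11 than in si-SET by edgeR, at -0.43 (SE 0.13, adjusted p = 0.0140). DESeq2 did not call that difference (adjusted p = 0.122), nor did edgeR without the first si-SET (adjusted p = 0.169) or the second si-ZBTB11 library (adjusted p = 0.0977).

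IFT74 and IFT81 form the dimer of the core that binds tubulin. IFT81 had 29.7 and 26.8 CPM in si-Ctr, 26.7 and 22.0 in si-ZBTB11 and 25.9 and 23.3 in si-SET. Its knockdown libraries lay below those of si-Ctr with no overlap, yet its log2 fold changes of -0.21 (SE 0.10, adjusted p = 0.124) and -0.20 (SE 0.10, adjusted p = 0.116) did not pass the test. Without the first si-ZBTB11 library the former was -0.35 with an adjusted p of 0.0283. IFT74 had 19.0 and 16.7, 15.8 and 18.7, and 18.7 and 18.2 CPM in the same order of groups, which overlapped throughout. IFT88, the core subunit whose loss causes polycystic kidneys in mice, had 11.7 and 13.3, 12.3 and 13.1, and 13.6 and 12.8 CPM, and its groups overlapped in each comparison as well.

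The peripheral arm of IFT-B contacts kinesin-2. IFT20, which also sits at the Golgi and sorts membrane cargo toward the cilium, had 10.9 and 12.5 CPM in si-Ctr, 13.3 and 14.4 in si-ZBTB11 and 10.1 and 11.2 in si-SET. The si-ZBTB11 libraries were the highest and overlapped neither group. The log2 fold change was 0.25 (SE 0.14, adjusted p = 0.205) against si-Ctr and 0.38 (SE 0.14, adjusted p = 0.0472) against si-SET. The latter call was lost by DESeq2 (adjusted p = 0.245), with library size as the scaling (adjusted p = 0.0551), with at least 10 counts required (adjusted p = 0.0503) and in 3 of the 4 fits that left out a library, those without the first si-SET, the first si-ZBTB11 or the second si-ZBTB11 library. TMEM97, on the opposite strand, overlaps 11.2% of the IFT20 exon length.

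IFT57, the partner of IFT20, had 38.8 and 45.8 CPM in si-Ctr, 46.3 and 42.5 in si-ZBTB11 and 41.3 and 40.2 in si-SET. IFT80, altered in a skeletal ciliopathy, had 25.1 and 25.9, 25.4 and 25.4, and 24.6 and 27.0 CPM. Neither passed the test in any comparison, and both knockdown groups overlapped si-Ctr. IFT80 shares 31.02% of its exon length with other genes, SMC4 and a read-through gene among them, so its counts are uncertain. Upon ZBTB11 knockdown the 95% intervals of the 7 listed genes that were not called ran from -0.40 for IFT81 to 0.52 for IFT20 on the log2 scale.

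**Figure D2:**
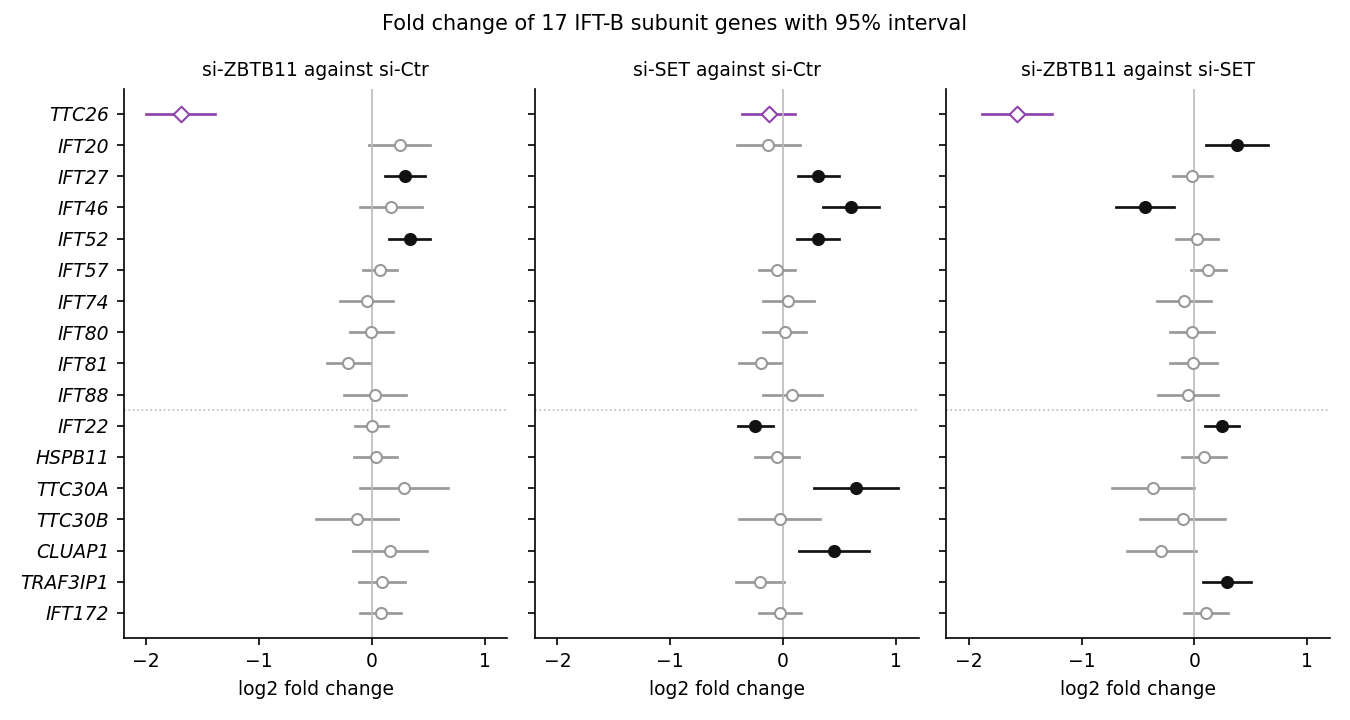
Fitted log2 fold changes (points) with 95% intervals (lines) of 17 IFT-B subunit genes in the 3 comparisons; filled points passed an adjusted p under 0.05, and the diamond is TTC26, which is drawn open because it was picked on the first comparison. TTC26 lies at -1.70 and -1.57 in the panels with si-ZBTB11, while the other 16 lie between -0.43 and 0.65 in all panels. These TTC26 values and their intervals are a description.

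Upon SET knockdown, edgeR also called subunits outside the list. Of the 16 without TTC26, 5 were called higher, against 13.1% of all genes tested, and 1 was called lower, against 13.9%. Besides IFT27, IFT46 and IFT52, the higher genes were TTC30A and CLUAP1. DESeq2 called 1 of the 6, IFT46. The higher calls numbered 1 without the second si-Ctr library and 3 without either si-SET library, and the lower call was lost without the first si-Ctr, the second si-Ctr or the first si-SET library. The median log2 fold change of the 16 was -0.01, beside 0.00 over all genes.

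TTC30A, an IFT70 subunit wrapped around the IFT52 stalk, had 5.49 and 4.72 CPM in si-Ctr, 5.85 and 6.56 in si-ZBTB11 and 9.04 and 6.93 in si-SET. The si-SET libraries were the highest and overlapped no other group, and the log2 fold change against si-Ctr was 0.65 (SE 0.19, adjusted p = 0.00578). Its close paralog TTC30B had 7.37 and 6.69, 5.85 and 6.97, and 5.93 and 7.87 CPM, and its log2 fold change was -0.03 (SE 0.18, adjusted p = 0.931). Of the 31-base words of TTC30A, 15.5% occur in other genes, TTC30B first, so reads may have been split between them and both levels are uncertain.

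CLUAP1, or IFT38 of the peripheral arm, had 7.60 and 7.47 CPM in si-Ctr, 8.23 and 8.58 in si-ZBTB11 and 11.01 and 9.58 in si-SET. It rose by 0.45 on the log2 scale (SE 0.16, adjusted p = 0.0231) upon SET knockdown, and its groups did not overlap. DESeq2 did not call CLUAP1. Other annotated genes cover 16.3% of the CLUAP1 exon length, so this level is uncertain. IFT22, a second Rab-like GTPase of the core, had 45.7 and 45.4, 45.8 and 44.9, and 38.0 and 38.7 CPM. The si-SET libraries were the lowest, and IFT22 fell by 0.25 (SE 0.08, adjusted p = 0.0110) upon SET knockdown. A long noncoding RNA on the opposite strand covers 59.0% of the IFT22 exon length, so this level is uncertain.

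HSPB11, IFT172 and TRAF3IP1 were not called in either knockdown against si-Ctr. HSPB11, the IFT25 partner of IFT27, had 27.3 and 24.0 CPM in si-Ctr, 27.2 and 25.1 in si-ZBTB11 and 25.6 and 23.7 in si-SET. IFT172, the largest subunit, had 28.9 and 29.6, 27.6 and 34.1, and 28.7 and 28.6 CPM. TRAF3IP1, or IFT54, had 22.0 and 22.3, 22.5 and 24.5, and 19.8 and 18.6 CPM. Its si-ZBTB11 libraries lay highest and its si-SET libraries lowest, with no overlap.

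The knockdowns were also set directly against each other. Of the 16 subunits other than TTC26, 1 was called lower in si-ZBTB11, IFT46, against 8.58% of all genes tested. Called higher in si-ZBTB11 were 3, IFT20, IFT22 at 0.24 (SE 0.08, adjusted p = 0.0208) and TRAF3IP1 at 0.29 (SE 0.10, adjusted p = 0.0493), against 9.61%. DESeq2 called 0 of these 4. With the first si-SET or the second si-ZBTB11 library left out, these calls were lost by edgeR as well. With the second si-SET or the first si-ZBTB11 library left out, only part of them remained. With library size as the scaling or at least 10 counts required, edgeR still called IFT46 lower and IFT22 higher and lost the other calls.

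Levels were compared between subunits per kilobase of MANE Select transcript. In si-Ctr, HSPB11 was the highest at 37.4 ± 3.46 CPM per kb, followed by IFT27 at 24.7 ± 0.53 and IFT52 at 15.0 ± 1.13 (SD, n = 2). TTC26 was 13th of 17 in si-Ctr at 3.998 ± 0.62 CPM per kb and 13th in si-SET at 3.66 ± 0.34. In both groups its libraries overlapped those of its lower neighbour IFT74, and in si-Ctr those of its upper neighbour IFT88 as well. In si-ZBTB11 it was 16th, at 1.23 ± 0.11 CPM per kb, apart from TTC30B above it at 1.69 ± 0.21 and from TTC30A below it at 1.08 ± 0.09. The libraries of neighbouring subunits in this order were apart in 10 of 16 cases in si-Ctr, 14 in si-ZBTB11 and 11 in si-SET.

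**Figure D3:**
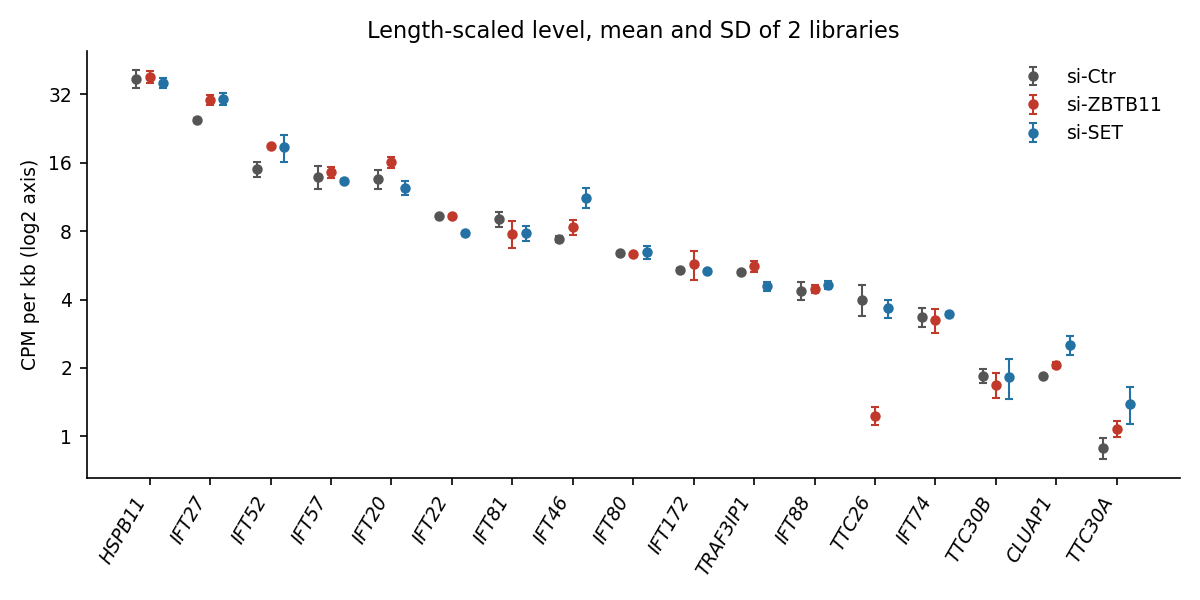
Mean CPM per kilobase of MANE Select transcript (log2 axis) of 17 subunits in the order of their si-Ctr level, with bars for the SD of 2 libraries. TTC26 lies at 3.998 in si-Ctr and at 1.23 in si-ZBTB11, near TTC30B and TTC30A.

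The genes nearest to TTC26 over the 6 libraries came from outside the complex. Likeness was the root mean square difference of log2 CPM, each gene centred on its own mean, among 11723 other genes with a mean of at least 50 counts. The 5 nearest were VPS51 of the GARP tethering complex (0.11), DPY19L4 (0.14), the cytosolic mannosidase gene MAN2C1 (0.17), the mitochondrial ribosomal protein gene MRPL48 (0.19) and TACO1, a translational activator of cytochrome oxidase (0.20). VPS51 had 102 and 106 CPM in si-Ctr, 35.7 and 34.4 in si-ZBTB11 and 104 and 107 in si-SET. Like TTC26, each of the 5 was lowest in the si-ZBTB11 libraries, at 31.1% to 40.8% of its si-Ctr mean, and at 82.0% to 101% in si-SET. Among the 16 other subunits, IFT81 was nearest at a difference of 0.73, ranked 2375 of 11723. The contrast that picked TTC26 enters this measure, so it is a description.

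**Figure D4:**
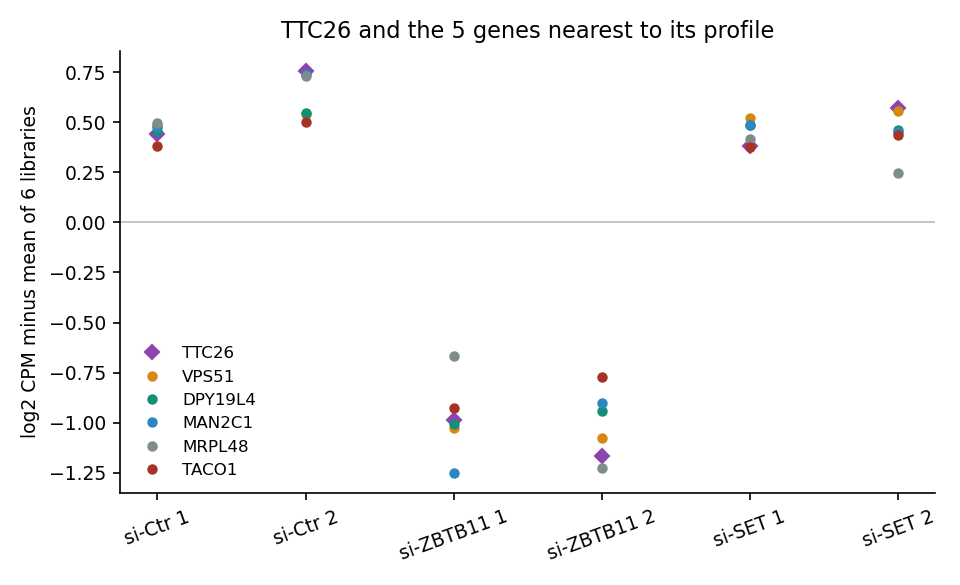
log2 CPM minus the gene's mean of 6 libraries for TTC26 (diamonds) and the 5 genes with the smallest root mean square difference from it (circles), in each library. In si-ZBTB11 the 6 genes lie between -1.25 and -0.67, and in the other libraries they lie above 0.

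The wider ciliary machinery was read in 8 lists. Of 72 genes tested, 5 were called lower and 4 higher upon ZBTB11 knockdown, and 5 lower and 5 higher upon SET knockdown, with a median log2 fold change of 0.00 and -0.01. DESeq2 called 1 lower and 1 higher, and 2 lower and 3 higher. Between the knockdowns, 3 were lower in si-ZBTB11 than in si-SET, namely WDR34, CEP290 and RFX7, and 7 were higher, while DESeq2 called 1 and 1. Over all genes tested, the shares were 10.5% lower and 9.94% higher upon ZBTB11 knockdown, and 13.9% and 13.1% upon SET knockdown. Between the knockdowns they were 8.58% and 9.61%. The edgeR counts of single lists below are to be read beside the same shares. DESeq2 called fewer genes than edgeR, 1296 against 2771 upon ZBTB11 knockdown, 1802 against 3667 upon SET knockdown and 1232 against 2465 between them. Its counts are to be read beside these totals.

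The motors of the trains were measured first. None of 5 kinesin-2 genes was called in any comparison by edgeR or DESeq2, and 0 had an unadjusted p under 0.05. KIF3A, a motor subunit, had 52.6 and 48.8 CPM in si-Ctr, 47.8 and 51.5 in si-ZBTB11 and 45.4 and 47.3 in si-SET. Of 10 dynein-2 genes, 1 rose upon ZBTB11 knockdown, the light chain DYNLL2 shared with other motors, at 0.34 (SE 0.05, adjusted p = 6.98e-08). DYNLL2 had 107 and 104 CPM in si-Ctr, 135 and 131 in si-ZBTB11 and 123 and 122 in si-SET, and its groups did not overlap. Upon SET knockdown it rose by 0.22 (SE 0.05, adjusted p = 0.000430), and the heavy chain DYNC2H1 fell by 0.17 (SE 0.06, adjusted p = 0.0309). DESeq2 called DYNLL2 in both knockdowns but not DYNC2H1.

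In IFT-A, which drives the return journey, 1 of 7 genes was lower in each knockdown. These were TULP3, an adaptor for membrane receptors, at -0.16 (SE 0.06, adjusted p = 0.0442) upon ZBTB11 knockdown and WDR35 at -0.27 (SE 0.07, adjusted p = 0.00269) upon SET knockdown. In the BBSome list, BBS2 rose by 0.26 (SE 0.07, adjusted p = 0.00425) upon ZBTB11 knockdown and the small subunit BBIP1 fell by 0.33 (SE 0.13, adjusted p = 0.0437) upon SET knockdown. The other 9 of the 10 genes were not called in each case. DESeq2 called 0 genes of IFT-A and of the BBSome in either knockdown, so these 4 calls rest on edgeR.

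The transition zone gates the ciliary base. TMEM216 of this zone had 52 and 65 counts in si-Ctr, 94 and 107 in si-ZBTB11 and 116 and 110 in si-SET. Both knockdowns lay above si-Ctr, at 0.79 (SE 0.22, adjusted p = 0.00451) and 0.93 (SE 0.22, adjusted p = 0.000490). CEP290, which tethers the zone to the membrane, had 47.4 and 41.8, 47.9 and 50.3, and 60.7 and 57.1 CPM, and it rose by 0.40 upon SET knockdown (SE 0.07, adjusted p = 5.07e-06). Its partner IQCB1 rose by 0.29 (SE 0.09, adjusted p = 0.00587), and the other 14 of 17 genes were not called. DESeq2 called TMEM216 and CEP290 upon SET knockdown and 0 of the 17 genes upon ZBTB11 knockdown.

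Of 10 Hedgehog genes, 2 were called lower upon ZBTB11 knockdown and 1 upon SET knockdown, and 0 were called higher. Over all genes tested, 10.5% and 13.9% were called lower, and 9.94% and 13.1% higher. SMO, the ciliary receptor protein that activates the pathway, had 37.0 and 37.1 CPM in si-Ctr, 28.6 and 30.0 in si-ZBTB11 and 29.7 and 34.5 in si-SET. It fell by 0.34 upon ZBTB11 knockdown (SE 0.09, adjusted p = 0.00179), and upon SET knockdown its value was -0.21 (SE 0.09, adjusted p = 0.0631). The inhibitor SUFU fell by 0.27 (SE 0.08, adjusted p = 0.00938) and 0.32 (SE 0.08, adjusted p = 0.00165). DESeq2 called SUFU upon SET knockdown and 0 of the 10 upon ZBTB11 knockdown. The target gene GLI1 was not called, at 78 and 81 counts in si-Ctr, 53 and 59 in si-ZBTB11 and 62 and 85 in si-SET. Of 5 tested genes of the RFX list, 1 was called lower and 1 higher upon ZBTB11 knockdown and 1 higher upon SET knockdown by edgeR, and 0 by DESeq2 in either. RFX3, a regulator of ciliary genes, had 166 and 193, 237 and 226, and 231 and 236 counts and rose in both knockdowns, by 0.38 (SE 0.14, adjusted p = 0.0449) and 0.36 (SE 0.14, adjusted p = 0.0415). RFX7 fell by 0.23 upon ZBTB11 knockdown (SE 0.07, adjusted p = 0.0145). Among 8 ciliary GTPase genes, RAB11A of recycling endosomes fell by 0.21 in each knockdown (SE 0.04, adjusted p = 9.03e-05 and 4.29e-05). Both knockdowns are set against the same si-Ctr libraries.

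Of 10 multiciliated markers tested, 0 were called upon ZBTB11 knockdown by edgeR or DESeq2, and 1 had an unadjusted p under 0.05. Upon SET knockdown 2 fell by edgeR and 0 by DESeq2, CCNO of centriole multiplication by 0.31 (SE 0.12, adjusted p = 0.0431) and the tubulin-binding gene TPPP3 by 1.03 (SE 0.36, adjusted p = 0.0223). TPPP3 had 46 and 41 counts in si-Ctr, 35 and 42 in si-ZBTB11 and 27 and 16 in si-SET, the lowest.

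**Figure D5:**
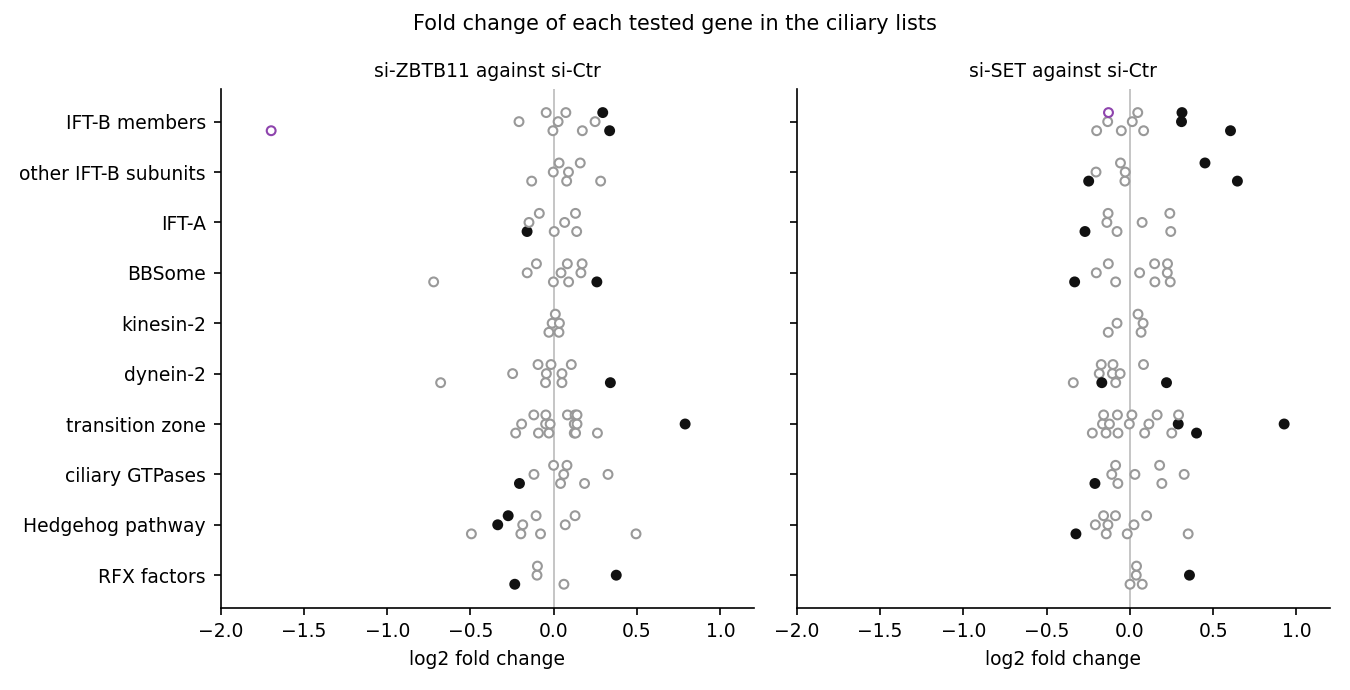
Fitted log2 fold change of each tested gene in 10 ciliary lists upon ZBTB11 knockdown (left) and SET knockdown (right); filled points passed an adjusted p under 0.05, and the purple ring is TTC26. TTC26 stands at -1.70 on the left, and the next lowest gene, BBS1, stands at -0.72 and was not called.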

How the data were processed

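The authors prepared NEBNext Ultra libraries, aligned reads to hg38 with HISAT2 2.0.5 and counted them with featureCounts 1.5.0-p3, as the submitters' processing notes list them. They deposited whole-number counts per gene without normalization, and strand setting, multi-mapping reads and annotation are not given in the sources used here. Here, each pair of groups was fitted over all genes with edgeR 4.0.16 in R 4.3.3 (TMM, default filterByExpr, quasi-likelihood test, two-sided, Benjamini-Hochberg), after the script was tested on simulated data. SEs were derived from F. Calls had an adjusted p under 0.05. DESeq2 1.42.0, other scalings and filters, a fit of all 6 libraries, a replicate block and leaving out each library were alternatives. With 2 libraries a group, an exact permutation test cannot go below 0.333. Replicates of a group differed by more than sampling noise (chi-square per degree of freedom 2.34 to 2.71). All subunits passed the filter. From lists other than IFT-B, at most 4 genes with the smallest adjusted p were named. Members and lists were chosen with earlier results of these data known. Each p-value set a difference between groups against the spread between libraries within groups, which was estimated with information from all genes.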

Additional observations from a re-analysis of the deposited data

How the results depend on the processing

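Leaving aside TTC26 in the comparisons with si-ZBTB11, on which it was picked, 268 of 308 fits of the 10 listed genes under alternatives kept direction and side of the threshold, 20 lost the call, 1 gained it and 19 changed sign. The sign changes were among genes that were not called, when a library was left out. Leaving out each library gave log2 fold changes upon ZBTB11 knockdown from -0.042 to 0.19 for IFT57, -0.17 to 0.071 for IFT74, -0.025 to 0.015 for IFT80 and -0.064 to 0.12 for IFT88. Upon SET knockdown they ran from -0.28 to 0.036 for TTC26, -0.17 to 0.071 for IFT57, -0.042 to 0.14 for IFT74, -0.055 to 0.076 for IFT80 and -0.0093 to 0.18 for IFT88. Between the knockdowns they ran from -0.076 to 0.048 for IFT27, -0.11 to 0.17 for IFT52, -0.22 to 0.026 for IFT74, -0.084 to 0.049 for IFT80 and -0.15 to 0.12 for IFT81. TTC26 upon ZBTB11 knockdown ran from -1.85 to -1.53.

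DESeq2 called fewer genes. Upon ZBTB11 knockdown it called 1296 genes against 2771 by edgeR, with 0 other subunits higher. Upon SET knockdown it called 1802 against 3667, with 0 subunits lower and 1 higher, and between the knockdowns 1232 against 2465, with 0 lower and 0 higher. Between the knockdowns, library size as the scaling and a minimum of 10 counts each left 1 subunit lower and 1 higher. With a library left out, the calls upon ZBTB11 knockdown were 1794 to 2197 genes, with 0 to 1 subunits lower and 0 to 2 higher. Upon SET knockdown they were 2411 to 2936 genes, with 0 to 1 lower and 1 to 4 higher, and between the knockdowns 0 to 1 lower and 0 to 1 higher. In these fits 1 group has a single library, which is assumed to vary like the others. The causes were not tested.

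Deviations of same-numbered libraries correlated at 0.01 to 0.03 across genes, so no broad shared shift was seen. A pairing that acts on only some genes was not tested. With the replicate number as a block, 3155, 4103 and 2996 genes were called in the 3 comparisons, more than the 2771, 3667 and 2465 without it. The subunit calls were 0 lower and 2 higher upon ZBTB11 knockdown, 1 and 5 upon SET knockdown and 1 and 3 between the knockdowns.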
